A study of Mus musculus with 12 samples.

Results

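Long intergenic non-coding RNAs (lincRNAs) were examined for N6-methyladenosine (m6A) in the lungs of mice with allergic asthma, as the set of m6A peaks whose assigned transcript carries the biotype lincRNA in the authors' peak lists. Recent Ensembl releases no longer use this biotype, and the release behind the peak annotation is not given in the sources used here. The list of the OVA group held 949 such peaks among 27292 (3.48%, 95% Wilson interval 3.27 to 3.70%), assigned to 568 genes, and the list of the PBS group held 895 among 26102 (3.43%, 3.21 to 3.66%), assigned to 543 genes. All mice were female BALB/c, aged 6 to 8 weeks in the study's methods. The OVA group was sensitized to ovalbumin, an egg protein used as an allergen, with an aluminum hydroxide adjuvant on days 0 and 7, and inhaled aerosolized ovalbumin daily from day 14 to day 20. The PBS group received phosphate-buffered saline in place of both. On day 21 the study's methods describe an airway test with inhaled methacholine under anesthesia, followed by collection of blood, airway lavage fluid and lung. Whether each sequenced mouse underwent the test and the lavage is not stated. Lung RNA of 3 mice per group, taken on day 21, was depleted of ribosomal RNA, fragmented and either immunoprecipitated with an antibody against m6A (IP) or sequenced without it (input). Each group has 1 list for its 3 mice, with no value for a single mouse and no read depth, so differences between the groups could not be set against the spread between animals and none was tested. Intervals given with a share cover counting error only, and peaks of 1 gene are not independent of each other.

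m6A is set on adenosines of nascent RNA by a methyltransferase complex that prefers a short sequence built around AC, and proteins that read the mark influence the splicing, export, translation and decay of the RNA. lincRNAs are transcribed from between protein-coding genes, spliced and often polyadenylated like mRNAs, but not known to be translated into protein, and many stay in the nucleus. Several of them, among them Malat1 and Xist, are known carriers of m6A. As a check on the tissue, 13 of 14 lung marker genes, including the surfactant gene Sftpb, the club cell gene Scgb1a1 and the endothelial gene Pecam1, had a peak called on them in each list. The surfactant gene Sftpc had none in either.

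The biotype label did not always name the RNA that held the peak. For each peak the lists give both the gene on which it was called and the transcript to which it was then assigned. The assigned transcript start was not always near the peak. In the OVA list 579 of the 949 lincRNA peaks (61.0%, 57.9 to 64.1%) were called on the lincRNA gene itself, beside 77.5% of all OVA peaks that were called on their assigned gene. In the PBS list these were 528 of 895 (59.0%, 55.7 to 62.2%), beside 77.2% of all PBS peaks. The other 370 OVA and 367 PBS lincRNA peaks were called on 243 and 238 other genes. RefSeq lists the called gene as protein-coding for 323 of those 370 peaks (87.3%) and for 319 of those 367 (86.9%), and as a long non-coding RNA for 22 and 28.

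The annotated region separated the peaks in the same way. A lincRNA has no coding sequence and therefore no untranslated region, yet 271 OVA peaks (28.6%, 25.8 to 31.5%) and 267 PBS peaks (29.8%, 26.9 to 32.9%) assigned to lincRNAs were annotated as 3' UTR. All but 1 of them in each list were called on another gene, and RefSeq lists that gene as protein-coding for 270 of 270 OVA peaks and 266 of 266 PBS peaks. The exception was Gm49797 in both lists. Peaks called on another gene lay upstream of the assigned lincRNA start in 90.3% of the OVA cases and 91.6% of those in the PBS list, at a median distance of 11314 bp and 11402 bp. Peaks called on the lincRNA itself lay a median of 1917 bp and 1955 bp from its start, and only 2.76% and 4.17% of them lay upstream of it.

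Hivep2, which encodes a zinc finger transcription factor, shows the pattern. Of 9 OVA peaks called on Hivep2, 8 were assigned to the lincRNA Gm48843, whose start was 45911 to 69172 bp away, and of 10 PBS peaks 9 were. Their fold enrichment, the ratio of IP over input that the peak caller gave within each list, reached 25.9 (OVA) and 17.5 (PBS). Fold enrichments of the lists are set side by side in what follows, and differences between them were not tested. All of the 8 OVA and 6 PBS peaks of Glp1r, the receptor of the hormone GLP-1, were assigned to Gm41562, with fold enrichment up to 12 and 11.7. All 5 peaks of Acvr1b, an activin receptor, went to AU021063 in each list. Of the cadherin gene Dchs2, 6 of 10 OVA peaks and 7 of 9 PBS peaks went to Gm38096, and 6 OVA and 5 PBS peaks of the forkhead gene Foxn3 went to 4930474N09Rik. The assignments from farthest away reached 233372 bp (OVA) and 233402 bp (PBS), from the 3' UTR of Wwox to 4930488N15Rik. Peaks in the 3' UTR of the phospholipase gene Plcb1 were assigned to Platr3 from as far as 176105 bp in both lists, and 1 OVA peak of Gfra1, a receptor of glial cell line-derived neurotrophic factor, was assigned to Gm50287 from 142385 bp with a fold enrichment of 42.5. Its PBS counterpart was assigned from 142475 bp with 28.7. Of the assigned lincRNA genes, 190 (OVA) and 197 (PBS) had no lincRNA peak called on themselves.

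The reverse also occurred. The 462 lincRNA genes that had a peak called on them and assigned to them in either list carried 640 called peaks (OVA) and 582 (PBS). Of these, 53 (8.28%, 6.39 to 10.7%) and 48 (8.25%, 6.28 to 10.8%) were assigned to another biotype and so lie outside the lincRNA set. A lincRNA gene whose peaks all went elsewhere in both lists is not among the 462, so these shares are low by construction. Neat1, the RNA scaffold of nuclear paraspeckles, lost 4 of 6 OVA peaks and 6 of 8 PBS peaks in this way, to a short RNA annotated inside it. Xist, which coats and silences the inactive X chromosome, lost 3 of 7 peaks in each list, among them its strongest, with 58.5 (OVA) and 85.9 (PBS). Jpx, which activates Xist, lost 2 of 3 OVA peaks and 2 of 2 PBS peaks to pseudogene annotations.

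The peaks called on their own lincRNA came from 378 OVA and 346 PBS genes. Most genes had 1 such peak, 244 (64.6%) and 233 (67.3%) respectively, and 89 and 72 had 2. Predicted genes with Gm symbols held 302 of 579 (OVA) and 283 of 528 (PBS), and RIKEN cDNA genes held 203 and 181. Genes with other symbols, either names or sequence accessions such as AI427809, made up the rest. They included 10 and 12 peaks of opposite-strand genes and 4 and 3 of small RNA host genes. RefSeq has no entry under the symbol for 180 OVA peaks (31.1%) and 165 PBS peaks (31.3%). It lists the gene as protein-coding for 24 (4.15%) and 22 (4.17%), among them Gm32856, Gm20939 and Gm44812.

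Fold enrichment of lincRNA peaks had a median of 8.14 (quartiles 3.85 and 13.3) in the OVA list, beside 5.59 over all OVA peaks. The PBS median was 7.29 (3.64 and 13.2), beside 5.44 over all PBS peaks. Peaks called on the lincRNA itself had medians of 8.73 and 7.83, and those called on another gene had 6.89 and 6.39. Antisense RNA peaks called on their own gene, another non-coding class, had medians of 5.80 and 5.68. The p values ran the other way. The median log10 p of the own-gene lincRNA peaks was -5.36 (OVA) and -5.91 (PBS), beside -24.9 and -22.2 for peaks outside the lincRNA set. Own-gene antisense peaks had medians of -7.60 and -6.98, closer to those of the lincRNAs. Of the own-gene lincRNA peaks, 264 of 579 (OVA, 45.6%, 41.6 to 49.7%) and 219 of 528 (PBS, 41.5%, 37.4 to 45.7%) had the same fold enrichment and the same p as a peak of another gene in their list, beside 17.5% and 18.2% of the peaks outside the lincRNA set and 35.4% and 30.9% of own-gene antisense peaks. Repeated pairs of this kind can come from ratios of small read counts, which the lists do not give, so a high fold enrichment at a weak p may rest on few input reads. This was not tested. The band at a log10 p of -20 or below was chosen after the data were seen. A peak's p depends on its fold enrichment as well as on its reads, so choosing by p also selects on fold enrichment. In this band the median fold enrichment of own-gene lincRNA peaks was 10.4 (95% interval 9.07 to 13) and 10.8 (8.57 to 12.6). It was 8.21 and 7.96 for the peaks outside the set and 8.21 and 7.90 for own-gene antisense peaks. Repeated pairs were found for 1 of 127 OVA (0.787%, 0.139 to 4.33%) and 6 of 124 PBS lincRNA peaks (4.84%, 2.24 to 10.2%) of this band. They were found for 2.73% and 2.59% of the peaks outside the set, and for 2.21% and 3.47% of own-gene antisense peaks.

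Peaks called on lincRNAs were also short and mostly in 1 block. Their exonic length had a median of 212 bp in each list, beside 330 bp and 328 bp over all peaks. Own-gene antisense peaks had the same length, with medians of 212 bp and 211 bp. More than 1 exonic block was present in 13% of them (OVA) and 13.1% (PBS), beside 24.1% and 21.4% over all peaks and 21.2% and 19% of own-gene antisense peaks. Among peaks on transcripts of several exons, 300 of 474 OVA peaks (63.3%, 58.9 to 67.5%) and 272 of 431 PBS peaks (63.1%, 58.5 to 67.5%) lay in the last exon. The first exon held 127 (26.8%) and 115 (26.7%). Over the own-gene lincRNA peaks, those on single-exon transcripts included, the median number of exons was 2. In transcripts of 2 exons the last held 140 of 203 OVA peaks (69.0%, 62.3 to 74.9%) and 116 of 173 PBS peaks (67.1%, 59.7 to 73.6%). With more than 4 exons it still held 30 of 58 and 34 of 63. In antisense RNAs the share in the last of several exons was 47.6% (43.1 to 52.2%) and 46.2% (41.4 to 51.1%). Exon lengths were not available, so these shares are not corrected for a longer last exon. At the other end, 66 OVA peaks (11.4%) and 73 PBS peaks (13.8%) reached the transcript start.

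For those at the start, RefSeq promoter sequences on GRCm38.p6 show the first transcribed bases. The table has an entry for 203 of the 378 OVA genes and 182 of the 346 PBS genes. A peak covered all of the first 50 transcribed bases at 18 starts of 17 genes, 13 genes in each list and 9 in both. The letters GGAC, a frequent form of the m6A sequence, occurred on the transcript strand in 4 of these 18 stretches (22.2%), beside 18.8% of all 32817 starts in the table. Their reverse complement GTCC, which is not a form of it, occurred in 2 (11.1%), beside 17.4% of all starts. The broader m6A sequence, with AC preceded by A or G, before that any base but C, and followed by any base but G, occurred in 10 (55.6%), beside 54.4% of all starts. The covered starts were thus close to all starts in the broader sequence, and the counts of the others are small. The stretches below, chosen after these values were seen, are those of well-known lincRNAs and those that hold GGAC, which is in capitals. They are credited to RefSeq and read 5′ to 3′ on the transcript strand.
Malat1: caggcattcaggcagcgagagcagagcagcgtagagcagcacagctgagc
Morrbid: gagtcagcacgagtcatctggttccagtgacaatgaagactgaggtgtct
Meg3: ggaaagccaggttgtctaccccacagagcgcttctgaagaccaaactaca
Lncpint: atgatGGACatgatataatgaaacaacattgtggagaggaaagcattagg
Dubr: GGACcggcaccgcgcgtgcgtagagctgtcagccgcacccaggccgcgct
Mir99ahg: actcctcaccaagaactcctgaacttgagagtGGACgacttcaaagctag
D130017N08Rik: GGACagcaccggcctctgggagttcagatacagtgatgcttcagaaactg
These are chr19:5802623-5802672 (Malat1, reverse strand), chr2:128429302-128429351 (Morrbid, reverse), chr12:109545398-109545447 (Meg3, forward), chr6:31218425-31218474 (Lncpint, reverse), chr16:50732724-50732773 (Dubr, reverse), chr16:77329328-77329377 (Mir99ahg, forward) and chr5:143758354-143758403 (D130017N08Rik, forward). The peak over the Dubr start had identical coordinates in both lists, chr16:50732712-50732773, with fold enrichment of 7.44 (OVA) and 28.1 (PBS). The printed Meg3 start was wholly covered only in the PBS list (4.16), and its overlapping OVA peak (2.15) began 20 bp downstream. The start of Mir99ahg, host gene of the microRNA miR-99a, lay under a peak only in the OVA list (2.50). That of D130017N08Rik was wholly covered only in the OVA list (11.3), and its overlapping PBS peak (7.83) began 59 bp downstream.

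Peaks were compared between the groups by overlap of their exonic blocks. In the OVA list 262 of 949 lincRNA peaks (27.6%, 24.9 to 30.5%) had no overlapping peak in the PBS list, beside 19.4% of all OVA peaks. In the PBS list 211 of 895 (23.6%, 20.9 to 26.5%) had none in the OVA list, beside 14.5% of all PBS peaks. The shares above the whole list were those of peaks called on lincRNA genes, with 204 of 579 (35.2%, 31.5 to 39.2%) and 158 of 528 (29.9%, 26.2 to 34.0%) lacking a counterpart, beside 30.9% and 22.7% of own-gene antisense peaks. Peaks called on another gene lacked one in 58 of 370 cases (15.7%, 12.3 to 19.7%) and 53 of 367 (14.4%, 11.2 to 18.4%). The limit on what counts as shared matters for these numbers. When both peaks had to overlap by at least 50%, 426 OVA (44.9%) and 371 PBS (41.5%) lincRNA peaks were without a counterpart, beside 31.4% and 28.3% of all peaks. When start and end had to be identical, 884 (93.2%) and 830 (92.7%) were, beside 89.7% and 89.3%.

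The p values of own-gene lincRNA peaks were weaker than those of the peaks outside the lincRNA set, while their fold enrichment was higher. Own-gene lincRNA peaks without a counterpart had a median fold enrichment of 7.57 (OVA) and 6.38 (PBS), beside 2.80 and 3.33 for such peaks outside the lincRNA set and 4.205 and 4.93 for such own-gene antisense peaks. In bands of log10 p chosen after the data were seen, 17.6% of the own-gene OVA peaks lay above -3 and 29.0% from -5 to -3, beside 8.02% and 11.6% of the peaks outside the lincRNA set and 15.4% and 21.1% of own-gene antisense peaks. Within a band the shares without a counterpart lay closer together, and whether p accounts for the difference between the sets was not tested. Above -3, 67.6% (58.1 to 75.9%) of the OVA lincRNA peaks and 66.1% of the other OVA peaks had no counterpart, and from -5 to -3 these were 55.4% (47.8 to 62.7%) and 49.9%. From -10 to -5 the lincRNA share was the lower, 22.0% (15.5 to 30.1%) beside 31.7%. From -20 to -10 these were 12 of 59 (20.3%, 12 to 32.3%) and 17.4%. At -20 or below, 3 of 127 OVA lincRNA peaks (2.36%, 0.807 to 6.71%) had none, beside 2.29%. In the PBS list the corresponding shares were 63.2% beside 59.8%, 48.7% (39.8 to 57.7%) beside 39.0%, and 22.1% (15.7 to 30.3%) beside 18.5%. In the remaining bands they were 6 of 59 (10.2%, 4.75 to 20.5%) beside 7.50%, and 1 of 124 (0.806%) beside 0.737%. The PBS lincRNA share was the higher in every band. Own-gene antisense peaks lacked a counterpart in 66.7%, 51.9%, 25.7%, 25.6% and 2.76% of OVA cases, from the weakest band to the strongest. For PBS these were 62.8%, 41.1%, 16.1%, 6.12% and 0%.

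By gene, 126 of the 568 assigned OVA lincRNA genes (22.2%, 19 to 25.8%) had no assigned lincRNA peak in the PBS list, beside 15.0% of all OVA genes counted by biotype. In the other direction, 101 of the 543 PBS genes (18.6%, 15.6 to 22.1%) had none in the OVA list, beside 11.1%, and 442 genes were in both. Counting only peaks called on the lincRNA, 116 of 378 genes (30.7%) were in the OVA list alone, beside 16.5% of all such genes, and 84 of 346 (24.3%) in the PBS list alone, beside 12.3%. The shares were thus above the background of each list, as those of the peaks were. Of the own-gene lincRNAs, 102 (27.0%) and 65 (18.8%) had no peak of any kind assigned to or called on them in the other list, beside 10.4% and 7.27% of all genes with own-gene peaks. Among the 102, 78 had a single peak, and A930038B10Rik and Gm10384 had 4 each. A930038B10Rik, on chromosome 14, had fold enrichment from 10.3 to 19.5 but no log10 p below -5.69. Both were singled out after their values were seen.

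The own-gene OVA peak of lowest p without a counterpart was in AI427809 at chr4:53262494-53263214, with a fold enrichment of 20 and a log10 p of -66.3. It was annotated to the last of 2 exons, although its distance to the assigned transcript start was given as 0. Gm37800 followed at chr1:184610279-184610543 (19.6, log10 p -37.9), and 1110002J07Rik at chr10:66913026-66913536 (9.37, log10 p -25.4). Gm13391 (4.48) and Gm47283 (2.98) completed the first 5. These lincRNAs have no established role that could be given here. In the PBS list the first was Gm13816, a peak of 2 blocks spanning chr2:92742646-92759208 with a fold enrichment of 3.44 and a log10 p of -33.5. Gm35394 at chr5:99278090-99278389 combined a fold enrichment of 43.4 with a log10 p of -13.8, and it stood among the first 5 PBS peaks by fold enrichment as well. Gm44226 (2.20), Gm12022 (4.50) and A330023F24Rik (1.94) were the others.

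2900097C17Rik, the mouse Norad gene, had the highest fold enrichment of the lincRNA peaks in the OVA list. Its RNA binds Pumilio proteins and is linked to chromosome stability. In the OVA list its single exon held a peak at chr2:156391899-156392979 with a fold enrichment of 335, and within it a second at chr2:156392546-156392829 with 146. In the PBS list the same stretch was split into chr2:156391989-156392500 (17.7), chr2:156392659-156392829 (3.87) and chr2:156392678-156392979 (3.82). A further OVA peak, at chr2:156391450-156391691, had 2.89, and the PBS peak within it had 2.56. Both lists thus placed the strongest Norad peaks toward the 5′ end of the RNA.

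Apart from Norad, the own-gene OVA peaks of highest fold enrichment were in Gm50269 (57.5, against 15.2 in the overlapping PBS peak), 2610035D17Rik (54.9 against 8.39) and Gm13749 (51.3 against 11.4). The own-gene PBS peaks of highest fold enrichment were in AI197445 (59.7, against 28.2 in the overlapping OVA peak), F630042J09Rik (48.6 against 23.7), Gm44066 (45.9 against 19) and Gm44812 (37.5 against 16.4). All of these had a counterpart in the other list, unlike Gm35394 above, and each was chosen for the highest value of its own list. Over the 340 pairs of own-gene lincRNA peaks that were each other's best overlap and called on the same gene, the median log2 ratio of OVA over PBS fold enrichment was 0.117 (quartiles -0.431 and 0.667), beside 0.134 over all 21097 such pairs. The ratio was less than 2-fold in either direction for 251 (73.8%), beside 87.3% of all pairs. AI197445 and F630042J09Rik both lie on chromosome 13, at chr13:107472760-107473689 and chr13:67279742-67280520.

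Of the nuclear and imprinted RNAs, Malat1 had its main peak at chr19:5801023-5802672 (OVA, 12.7) and chr19:5800993-5802672 (PBS, 12), Xist its strongest lincRNA peak at chrX:103481875-103482924 in exon 1 (22.1 and 23.5), and Neat1 a peak over its first bases (3.01 and 4.22). Meg3 is an imprinted RNA made from the maternal copy. Of its peaks, 1 of 3 (OVA) and 1 of 2 (PBS) were assigned to it as a lincRNA (2.15 and 4.16). Its other peaks, assigned to microRNAs inside it, reached 8.73 and 24.2. Mirg, from the same imprinted cluster (11.8), and Jpx (1.74) had a lincRNA peak in the OVA list alone. That of Mirg had a log10 p of -3.19, and other OVA genes such as Gm1627 had the same pair of values.

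Other lincRNAs of known function followed. Oip5os1, the mouse Cyrano RNA, which directs the decay of the microRNA miR-7, had its main peak in 3 blocks with a fold enrichment of 17.3 in both lists. Fendrr, which lies beside Foxf1 and is required for development of the heart and body wall, had a pair of peaks with identical coordinates in both lists, with 9.89 and 8.80 (OVA) and 8.57 and 8.03 (PBS). Lncpint, a p53-responsive RNA, had its first-exon peak with 7.32 (OVA) and 11.4 (PBS). Trp53cor1, known as lincRNA-p21 and also p53-responsive, had 4 OVA and 2 PBS peaks called on it. 3 of the OVA peaks were assigned to it (2.05, 4.03 and 10), and the fourth (8.14) went to the lincRNA Gm41556. The latter and the peak of 10 each overlapped 1 of the PBS peaks (both 22.7). Among small RNA host genes, Snhg17 had 1 lincRNA peak in each list (7.19 and 11.6). Of the peaks called on Mir99ahg, 3 of 4 (OVA) and 1 of 2 (PBS) were assigned to it, and its strongest went to the microRNA Mir125b-2 (18.4 and 15.5). Mir100hg had a lincRNA peak in the PBS list (3.60), and its 3 OVA peaks were assigned to transcripts of other biotypes of the same gene (up to 5.78). Both peaks assigned to Snhg12 were called on its neighbour Taf12 in each list, and a peak called on Crnde was assigned to Gm21817 (2.13 and 3.69).

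Some of these RNAs have known roles in immune cells. Morrbid controls the lifespan of eosinophils and other short-lived myeloid cells through the neighbouring gene Bcl2l11. It had 4 OVA and 2 PBS peaks, and only the first-exon peak was shared, with a fold enrichment of 8.29 at chr2:128429113-128429383 (OVA) and 4.19 at chr2:128429173-128429383 (PBS). The other 3 OVA peaks ranged from 2.18 to 3.14, and the other PBS peak had 11.4 at a log10 p of -3.07. Ptgs2os2, known as lincRNA-Cox2, regulates inflammatory genes in macrophages and had 1 peak with identical coordinates in both lists, chr1:150159308-150159575, with 16.9 and 19.7. With eosinophils entering the lung in this model, a change in the number of cells that make an RNA and a change in the RNA within a cell cannot be told apart in whole lung.

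Some lincRNAs carried several peaks. 3222401L13Rik had 8 OVA and 5 PBS peaks, but its 8 were 4 stretches each entered again with coordinates a few bases apart. 5031425E22Rik had 5 OVA and 4 PBS peaks, most of them also overlapping another of the same list. Gm32856 had 5 OVA and 3 PBS peaks, of which the strongest had 45.2 and 26.6. Cdr1os, a transcript of the locus that makes the circular RNA Cdr1as, had 6 PBS and 4 OVA peaks. Most of these peaks lay in exon 8. Fold enrichment ranged from 1.79 to 15.3 (PBS) and from 2.98 to 11.6 (OVA). Several of the PBS peaks overlapped a peak called on another gene of that list. E430024I08Rik had 6 PBS and 4 OVA peaks, and 4933439K11Rik was among 13 lincRNAs with 4 OVA peaks. Gm28187, 6430584L05Rik and 4933406B17Rik had 5 PBS peaks each, as did Gm46430. Joining peaks that share exonic bases left 901 separate regions of 949 (OVA) and 859 of 895 (PBS). An overlap with a peak called on another gene of the same list was found for 64 own-gene OVA peaks (11.1%, 8.75 to 13.9%) and 55 PBS peaks (10.4%, 8.09 to 13.3%), and the reads there cannot be given to 1 gene, since the lists carry no strand of the peak. For antisense RNAs these shares were 42.1% and 43.7%.

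lincRNA peaks made up the largest share of a chromosome's peaks on chromosome 13 among the autosomes, with 67 of 1161 OVA peaks (5.77%, 4.57 to 7.26%) and 76 of 1112 PBS peaks (6.83%, 5.50 to 8.47%). The smallest share was on chromosome 4, with 21 of 1553 (1.35%, 0.886 to 2.06%) and 18 of 1466 (1.23%, 0.778 to 1.93%). The X chromosome had 17 and 16 lincRNA peaks, 15 of them in each list called on the lincRNA itself, and 4 of those were Xist. The OVA list also had 2 peaks on chromosome Y, both lincRNA peaks, although the mice were female. They lay in Gm21860 at chrY:90754896-90754957 and Gm47283 at chrY:90791740-90792098, near the end of the chromosome where X and Y share sequence, with fold enrichment of 2.91 and 2.98. The PBS list had no peak on chromosome Y.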

How the data were processed

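Lung RNA of 3 OVA and 3 PBS mice gave 6 IP and 6 input libraries. Reads were cleaned with FASTP, aligned with HISAT2 to an Ensembl mouse genome whose release the study's methods name, peaks were called with exomePeak and annotated with ChIPseeker. Software versions are not in the sources used here. How the 3 mice of a group were combined is not given in the sources used here. The authors' caller gave the fold enrichment (a ratio of IP to input) and, as a score, the log10 of p and of FDR. Widths, blocks and distances to the assigned start are as deposited, in bp or counts. Of own-gene lincRNA peaks with a RefSeq entry, 90.2% (OVA) and 90.4% (PBS) overlapped its position on GRCm38.

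lincRNA peaks were those whose assigned transcript has that biotype, and own-gene peaks those called on the assigned gene. Blocks sharing at least 1 bp counted as overlapping, whatever the strand. Functions were checked on simulated peaks. Shares have 95% Wilson intervals. Python 3.11.15, numpy 2.4.6, pandas 2.3.3 and scipy 1.17.1 were used. Named genes were well-known lncRNAs and small RNA host genes. Each list added the 5 own-gene peaks of highest fold enrichment at an FDR under 0.05 and the 5 of lowest p without a counterpart. It also added the 5 lincRNAs with most peaks, the 5 genes with most peaks assigned to a lincRNA, and the 5 farthest assignments. Among the lincRNAs with most peaks, 13 tied at 4 peaks (OVA) and 5 at 5 peaks (PBS), and only part of each tie was taken. Members and lists were chosen with earlier results of these data known, and the p bands, the fold enrichment within them and the search for repeated values after seeing the data. Ratios of fold enrichment between the lists were taken over pairs of peaks that were each other's best overlap and called on the same gene, and were not tested, since each list has its own scale. Motifs were searched only in the first transcribed bases that RefSeq promoter sequences hold, since no genome sequence was used here.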

Additional observations from a re-analysis of the deposited data

How the results depend on the processing

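The 12 counts, medians and shares were recomputed under 44 alternatives, of which 40 left the value within 1.5 times of a count or inside the 95% interval of a share or median. These covered an FDR under 0.05, a fold enrichment of at least 2, overlap of genomic spans, counterparts also assigned to a lincRNA, and own-gene peaks only. Own-gene peaks only was applied to the genes in 1 list and to the median fold enrichment, not to the 3' UTR share. It left the gene counts within the limit (116 for 126 OVA, 84 for 101 PBS). As shares of the genes these rose from 22.2% to 30.7% (OVA) and from 18.6% to 24.3% (PBS). Counting overlapping peaks once and requiring a counterpart called on the same gene were added after seeing the data. The stricter definitions of a shared peak accounted for the other 4, which belong to 2 values. When 50% of each peak had to be covered by the other, 426 OVA and 371 PBS lincRNA peaks had no counterpart, and with identical start and end, 884 and 830, in place of 262 and 211. These definitions ask more of a counterpart by construction.

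No paired analysis was possible because the lists hold 1 value per group and none per mouse. Leaving out each replicate was not possible for the same reason. Read depth is not in the lists, so methylation, expression and coverage cannot be told apart where a peak is missing from a list.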
